A study of Mus musculus with 4 samples.

Results

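Synaptic organizers are adhesion proteins that meet across the synaptic cleft and bring the release site and the receptors of the next cell into register. This report follows 39 of their genes, out of 32285 genes counted, through the nuclei of the mouse hindbrain. The genes were chosen by family: the neurexins Nrxn2 and Nrxn3, the neuroligins Nlgn1 to Nlgn3, the LRRTM proteins Lrrtm1 to Lrrtm4, the cerebellins Cbln1, Cbln2 and Cbln4, the CASPR proteins Cntnap2, Cntnap4, Cntnap5a, Cntnap5b and Cntnap5c, the SLITRK proteins Slitrk1 to Slitrk6, the IL1RAPL proteins Il1rapl1 and Il1rapl2, the receptor phosphatases Ptprd, Ptprf and Ptprs, the ELFN proteins Elfn1 and Elfn2, the contactins Cntn1 to Cntn6, and the calsyntenins Clstn1 to Clstn3. That rule uses gene families and no measured value, although the list was drawn up with earlier results of these data known. Their levels were read in 12539 neurons, which the deposited annotation splits into 134 clusters, and in the other 13 of its 14 cell types, over 39461 nuclei that had passed the study's quality filter.

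The study asked which hindbrain neurons respond when AgRP neurons, which drive feeding, are activated while POMC neurons, which restrain it, are silenced. Single nuclei were sequenced from a dissected portion of the hindbrain that held the area postrema and the nucleus of the solitary tract. The 4 libraries formed 2 groups of 2, control and AgRP-Gq;POMC-Gi. AgRP-Gq;POMC-Gi mice (AgRP-IRES-Cre+/-;hM3DGqfl/-;POMC-Dre+/-;hM4DGifl/-) carried Cre under the Agrp locus, Dre under the Pomc promoter, and 2 receptor alleles behind stop cassettes, the activating hM3DGq that Cre releases and the silencing hM4DGi that Dre releases. The controls, labelled WT, carried the same 2 stopped receptor alleles without Cre or Dre, per the study's methods. All mice of both groups received clozapine N-oxide (CNO, 3 mg/kg), the ligand of these receptors, and were killed 1 h later without food. They were adults of 12 to 20 weeks, of both sexes. The receptors are made where Agrp or Pomc is active, and AgRP neurons lie in the hypothalamus, outside the dissected tissue. No library without CNO was analysed here.

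Neurexins sit on the axon terminal and bind neuroligins, LRRTM proteins and, through secreted cerebellins, receptors of the postsynaptic side. The receptor phosphatases form a parallel presynaptic hub that binds SLITRK and IL1RAPL proteins. Contactins are membrane-anchored adhesion molecules that pair with CASPR proteins on axons, where Cntn1 and Cntn2 also help to build the regions at and beside the nodes of myelinated fibres. ELFN proteins recruit metabotropic glutamate receptors across the synapse, and calsyntenins bind neurexins and carry cargo in axons.

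The library was the replicate. The methods state that mice of a group were pooled, with 2 mice given per group, so a p-value measures the spread between libraries, which may be partly technical. The 4 libraries held 9723 to 10051 nuclei and 48904976 to 53089402 unique molecular identifiers (UMIs, counted molecules), of which neurons held 26860073 to 35583732. The share of neurons was 25.4% in control replicate 1 and 27.2% in control replicate 2, against 38.0% and 36.5% in AgRP-Gq;POMC-Gi replicates 1 and 2. The libraries stood apart in 2 further ways. Choroid plexus nuclei numbered 2 and 436 for the controls against 6 and 329 for AgRP-Gq;POMC-Gi, and the choroid transcripts Ttr and Folr1 together reached 1.53, 1006, 7.73 and 582 CPM (counts per 1000000 UMIs) in neurons in that order. Xist, the RNA made from the inactive X chromosome of females, stood at 507, 319 and 541 CPM in the neurons of control replicate 1, control replicate 2 and AgRP-Gq;POMC-Gi replicate 1 but at 16.2 CPM in AgRP-Gq;POMC-Gi replicate 2. The Y-linked gene Uty stood at 56.9, 82.4, 55.8 and 169 CPM in the same order, so the makeup of the libraries by sex differed. A set of 168 barcode sequences was kept in more than 1 library. The neuronal markers Rbfox3, Snap25 and Syt1 summed to 2319 ± 38.3 CPM (SD, n = 4 libraries) in nuclei annotated as neurons and to 128 to 433 CPM in the other cell types.

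Together the 39 genes made up 2.97% ± 0.111 (SD, n = 4) of all neuronal UMIs, with sums of 29597, 29635, 31174 and 28470 CPM in control replicates 1 and 2 and AgRP-Gq;POMC-Gi replicates 1 and 2. All lists of 4 values follow this order of libraries. The genes are long. Their gene bodies span 4.205 kb (Cbln1) to 2271 kb (Ptprd), with a median of 83.2 kb against 29.1 kb over the 12111 genes seen in 5% of neurons or more, and 13 of the 39 exceed 500 kb. Among the 39 genes, CPM followed body length closely (Spearman rho 0.92, against 0.54 over those 12111 genes; points share libraries and nuclei), whereas CPM per kb of gene body did not (rho -0.053). Nuclear RNA is rich in unspliced transcripts, so levels of different genes are compared only per kb in what follows. The division assumes counts in proportion to body length, and whether intronic reads were counted is not given, so orders per kb are descriptions. Of the 39 genes, 37 were seen in 5% of neurons or more, the exceptions being Cbln1 (4.51%) and Slitrk6 (1.34%). The SD between libraries was under 10% of the mean for 31 genes and ranged from 1.71% (Cntn1) to 21.8% (Cbln1).

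**Figure D1:**
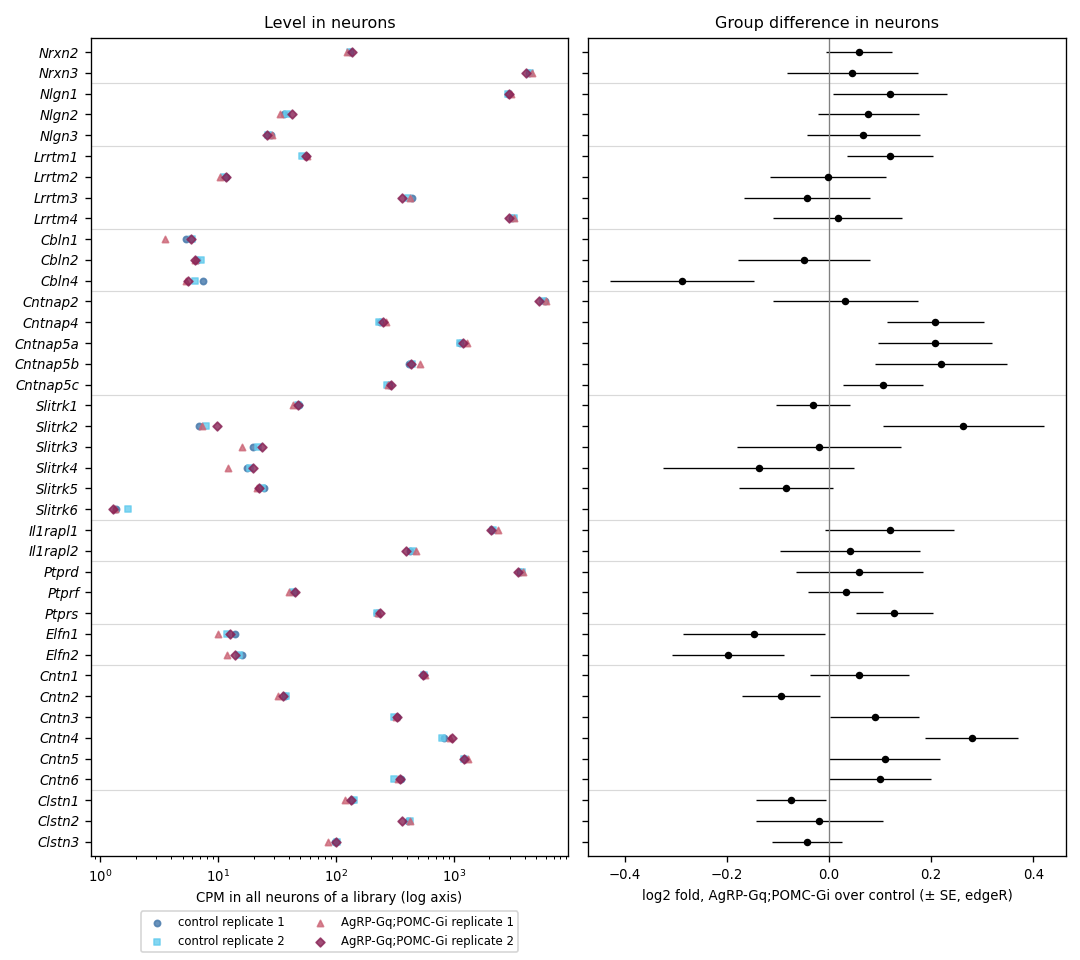
Left, level of each of the 39 genes in neurons, in CPM on a log axis, with 1 marker per library. Right, the log2 difference of AgRP-Gq;POMC-Gi over control in all neurons, as points with bars of 1 SE derived from edgeR's F statistic, for the 37 genes tested. Mean levels on the axis span 1.43 CPM (Slitrk6) to 5740 CPM (Cntnap2) and are not corrected for gene length, the markers of a gene lie close together, and Cntn4 is farthest to the right at a log2 difference of 0.28.

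Of the presynaptic neurexins, Nrxn3 stood at 4309, 4441, 4547 and 4096 CPM in neurons and Nrxn2 at 131, 131, 125 and 137 CPM. Per kb of gene body these levels are 2.70 and 1.05 CPM. Libraries of the groups overlapped for both genes. Nrxn3 is a gene of 1612 kb on chromosome 12 (GRCm38, 88722876 to 90334935, plus strand, GENCODE M21). Its 3′ counts join transcripts from all of its start sites, so which start was used was not measured. RefSeq (GRCm38.p6) lists 3 starts for it, 1018 kb apart from the first to the last, and the 250 bases before each are shown because Nrxn3 had the widest gap between transmitter classes among the genes above 20 CPM. The capitals mark CG, the dinucleotide that methylation of DNA targets, and each stretch is read on the plus strand.
Nrxn3, chr12:88794254-88794503: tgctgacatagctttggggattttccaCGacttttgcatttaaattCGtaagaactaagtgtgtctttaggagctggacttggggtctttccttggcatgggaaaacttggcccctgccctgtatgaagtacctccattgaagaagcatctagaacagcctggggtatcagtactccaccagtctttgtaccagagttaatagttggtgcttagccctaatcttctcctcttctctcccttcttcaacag
Nrxn3, chr12:88953140-88953389: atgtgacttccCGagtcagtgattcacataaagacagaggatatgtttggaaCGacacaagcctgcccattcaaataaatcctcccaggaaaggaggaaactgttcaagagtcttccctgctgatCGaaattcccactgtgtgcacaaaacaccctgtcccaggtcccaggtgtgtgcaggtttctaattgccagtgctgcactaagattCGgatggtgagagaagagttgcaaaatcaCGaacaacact
Nrxn3, chr12:89812233-89812482: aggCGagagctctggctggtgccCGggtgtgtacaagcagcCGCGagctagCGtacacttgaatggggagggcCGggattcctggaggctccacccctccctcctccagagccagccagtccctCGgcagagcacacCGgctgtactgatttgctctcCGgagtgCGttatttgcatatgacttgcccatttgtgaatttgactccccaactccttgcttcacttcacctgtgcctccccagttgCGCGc
The stretches hold 2, 5 and 12 CG, in order along the chromosome. At least as many CG are found in 81.2%, 55.6% and 33.5% of all 32851 such RefSeq entries, whose median is 6. The first and second stretches thus lie below the median and the last above it. The GENCODE gene body begins at 88722876, before the first listed start. Whether each stretch acts as a promoter was not tested. An upstream stretch was found for 29 of the 39 genes.

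Of the presynaptic receptor phosphatases, Ptprd stood at 3629, 3759, 3848 and 3521 CPM, Ptprs at 221, 222, 228 and 237 CPM, and Ptprf at 43.8, 43.1, 40.3 and 45.1 CPM. Per kb of gene body the levels are 1.62 CPM for Ptprd, 3.54 for Ptprs and 0.52 for Ptprf, so Ptprs had the highest value per kb of the family. Of their postsynaptic partners, Il1rapl1 stood at 2102, 2157, 2350 and 2073 CPM and Il1rapl2 at 427, 453, 477 and 389 CPM. Per kb these are 1.58 and 0.34 CPM. Of the SLITRK genes, Slitrk2 stood at 6.92, 7.87, 7.25 and 9.86 CPM and Slitrk4 at 17.5, 18.8, 12.2 and 19.8 CPM, with means of 46.7 CPM for Slitrk1, 20.4 for Slitrk3, 23.0 for Slitrk5 and 1.43 for Slitrk6. Per kb, Slitrk1 had the highest level of all 39 genes, 8.72 CPM, followed in its family by Slitrk5 (2.86), Slitrk3 (1.93), Slitrk4 (1.41), Slitrk2 (0.66) and Slitrk6 (0.22).

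Of the postsynaptic partners of neurexins, Nlgn1, which works at excitatory synapses, stood at 2854, 2889, 3054 and 2922 CPM. Nlgn2, the neuroligin of inhibitory synapses, stood at 36.2, 38.3, 33.4 and 42.3 CPM, and Nlgn3 at 28.3, 26.6, 28.9 and 26.2 CPM. Per kb of gene body the neuroligins stood at 3.23 CPM (Nlgn1), 2.56 (Nlgn2) and 1.03 (Nlgn3). Of the LRRTM genes, Lrrtm2 stood at 11.7, 11.2, 10.4 and 11.6 CPM, Lrrtm3 at 443, 406, 422 and 366 CPM, Lrrtm1 at 54.9 ± 2.35 and Lrrtm4 at 3131 ± 158 CPM (SD, n = 4). Per kb, Lrrtm1 to Lrrtm4 stood at 3.63, 1.86, 2.53 and 3.96 CPM. The secreted cerebellins were read on few UMIs, at 5.40, 6.05, 3.57 and 5.90 CPM for Cbln1, 7.48, 6.34, 5.31 and 5.56 CPM for Cbln4 and 6.60 ± 0.358 CPM for Cbln2, so the values of Cbln1, Cbln2 and Cbln4 rest on 646, 822 and 760.0 UMIs in all neurons. Elfn1 stood at 14.04, 12.0, 10.0 and 12.6 CPM and Elfn2 at 15.8, 15.2, 12.0 and 14.004 CPM, and Elfn1 had the lowest level per kb of the 39 genes, 0.18 CPM. Clstn1 stood at 136, 143, 120 and 135 CPM, Clstn2 at 406, 427, 425 and 362 CPM, and Clstn3 at 95.9 ± 6.98 CPM (SD, n = 4).

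Of the axonal families, Cntnap2, which clusters potassium channels beside the node, stood at 5952, 5659, 6082 and 5266 CPM. Its relatives stood at 246 ± 16.2 CPM (Cntnap4), 1185 ± 82.2 (Cntnap5a), 453 ± 45.0 (Cntnap5b) (SD, n = 4), and at 279.7, 270.5, 274 and 294 CPM for Cntnap5c. Per kb the family stood at 2.56 CPM for Cntnap2, 0.79 for Cntnap4, 1.31 for Cntnap5a, 0.64 for Cntnap5b and 0.44 for Cntnap5c. Of the contactins, Cntn4 stood at 822, 794, 922 and 960 CPM, Cntn1 at 561, 553, 567 and 545 CPM, Cntn3 at 327, 311, 324 and 326 CPM and Cntn5 at 1245, 1207, 1309 and 1224 CPM. Cntn2 stood at 35.7 ± 2.52 and Cntn6 at 338 ± 21.9 CPM (SD, n = 4). Per kb the contactins lay between 0.78 CPM (Cntn3) and 1.91 CPM (Cntn1), with Cntn2 at 1.05, Cntn5 at 1.00, Cntn6 at 0.91 and Cntn4 at 0.86.

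Neurons held the highest mean CPM among the 14 cell types for 13 of the 39 genes, beside 9% (1369) of the 15211 genes seen in 5% or more of the nuclei of a cell type. For 9 of the 13 the neuronal libraries did not overlap those of the second cell type, beside 4.07% (619) of those genes. Cell types were built from expression, so these are descriptions with no test. Small cell types count too, down to 2 nuclei in a library for choroid plexus. The highest mean of a gene can thus rest on few nuclei, also among the 15211 genes. The neuronal genes were the 5 CASPR genes of the list, Nrxn3, Cbln2, Cbln4, Il1rapl2, Cntn3, Cntn5, Clstn2 and Clstn3. Of these CASPR genes, 4 stood at 10.2-fold (Cntnap2), 15.1-fold (Cntnap4), 12.6-fold (Cntnap5a) and 13-fold (Cntnap5b) the level of the next cell type, Il1rapl2 at 15.0-fold and Cntn5 at 7.03-fold. Nrxn3 was also high in oligodendrocyte precursors (OPC), at 3254, 3131, 2786 and 2959 CPM, and low in oligodendrocytes, at 46.2 ± 6.20 CPM (SD, n = 4).

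OPC, the dividing cells that receive synapses and give rise to oligodendrocytes, held the highest level for 17 of the 39 genes, beside 3.27% (497) of the 15211 genes, and 10 of the 17 did not overlap the second cell type, beside 1.32% (201). Nrxn2 was at 700, 727, 623 and 533 CPM in OPC, above its 125 to 137 CPM in neurons. Nlgn1 stood at 5457 ± 199 CPM in OPC, Il1rapl1 at 3727 ± 83.4, Cntn1 at 1787 ± 117 and Cntn4 at 1383 ± 73.3 CPM (SD, n = 4). Nlgn3 was at 104 ± 17.1 CPM in OPC and Slitrk3 at 50.1 ± 5.79 CPM. Oligodendrocytes, the myelinating cells, held the highest level of 3 genes: Ptprd at 5196, 5207, 5696 and 5353 CPM, Lrrtm3 at 931, 874, 873 and 887 CPM, and Cntn2 at 305, 310.3, 308 and 314 CPM. Each of these exceeded the neuronal level in every library. Slitrk2 had its highest mean in astrocytes, whose libraries (50.4 to 72.6 CPM) overlapped those of OPC (35.8 to 56.5 CPM), with 6.92 to 9.86 CPM in neurons. The other 5 genes (Clstn1, Slitrk4, Ptprf, Cbln1 and Elfn2) had their highest mean in a cell type whose libraries overlapped the second.

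**Figure D2:**
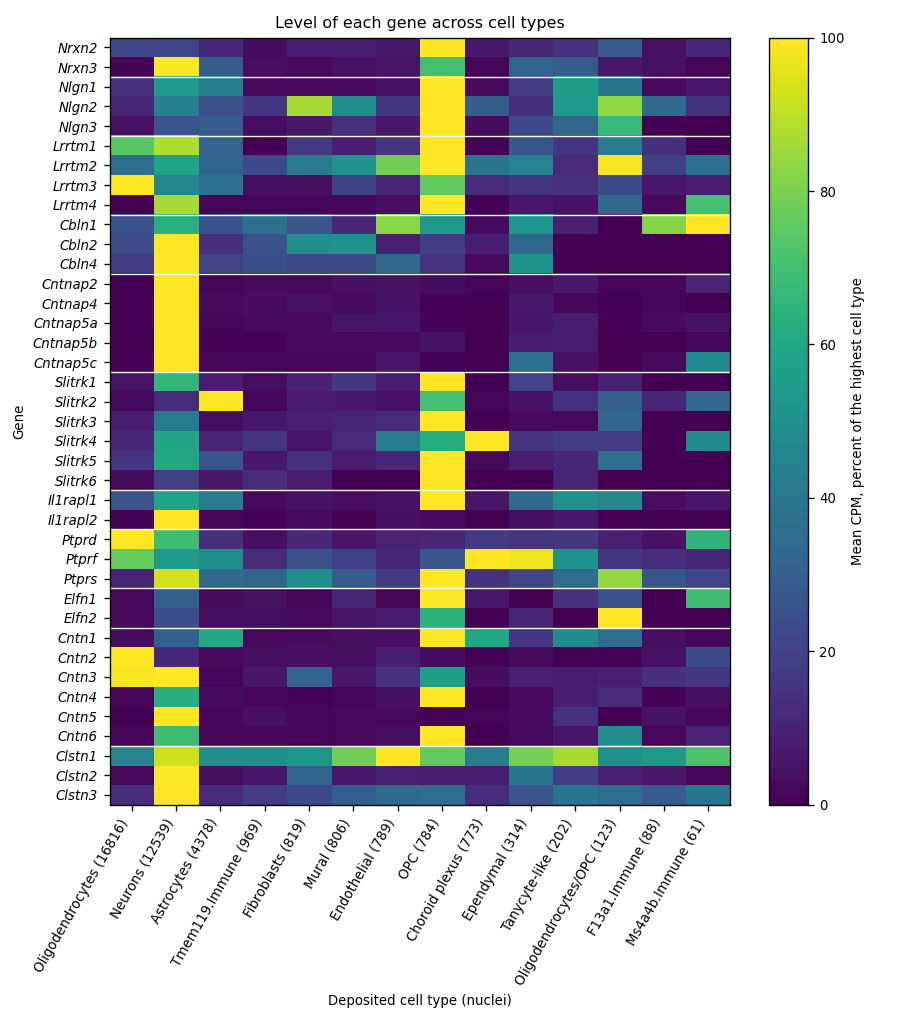
Mean CPM of the 39 genes (rows) in each of the 14 annotated cell types (columns, with the number of nuclei), as a percent of the gene's highest cell type, from dark (0) to yellow (100). Most CASPR genes, Il1rapl2 and Cntn5 are yellow in neurons and dark elsewhere, whereas many neuroligin, SLITRK and contactin genes are yellow in OPC.

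Neuronal clusters were split by the vesicular transporters Slc17a6 (glutamate) and Slc32a1 (GABA and glycine), neither of which is among the 39 genes, at a 4-fold difference. This gave 69 glutamatergic clusters (6201 nuclei), 46 GABAergic clusters (4933 nuclei), 7 with both and 12 with no call. Nrxn3 was at 7047, 7134, 6994 and 6594 CPM in the GABAergic clusters and at 1746, 2019, 2007 and 1723 CPM in the glutamatergic clusters, 3.71-fold higher in the former. The classes did not overlap in any library. It was the only one of the 39 genes at least 2-fold higher in GABAergic clusters in each library, a rule that 0.437% (54) of 12354 genes met. After each nucleus was thinned to 2000 UMIs, 99.3% of GABAergic and 74.1% of glutamatergic nuclei held a Nrxn3 UMI (unthinned 99.6% and 87.3%), whereas 3.09% of oligodendrocytes thinned to 800 UMIs did.

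The gap in Nrxn3 was one of degree across clusters. GABAergic clusters ranged from 3700.5 to 10175 CPM with a median of 6630.0, and glutamatergic clusters from 199 to 6783 CPM with a median of 1629. Of the 69 glutamatergic clusters, 4 lay above the lowest GABAergic cluster and 1 above the GABAergic median. Per kb, Nrxn3 exceeded Nrxn2 in all 46 GABAergic clusters but in 31 of the 69 glutamatergic clusters, while Nrxn2 exceeded Nrxn3 in the other 38. Nrxn2 itself was alike in the classes, at 133 ± 5.91 CPM in glutamatergic and 129 ± 6.29 CPM in GABAergic clusters (SD, n = 4).

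The cerebellins Cbln1 and Cbln2 leaned the other way. Cbln1 was at 9.36, 9.33, 5.93 and 9.38 CPM in glutamatergic and 0.91, 1.25, 0.45 and 1.56 CPM in GABAergic clusters, 8.14-fold higher in the former. Cbln2 was at 10.5, 11.4, 11.1 and 10.3 CPM against 2.38, 2.40, 1.28 and 2.27 CPM, 5.20-fold higher. These were the only 2 of the 39 genes at least 2-fold higher in glutamatergic clusters in each library, which 0.761% (94) of the 12354 genes were, while Cbln4 did not separate the classes (6.26 ± 0.739 and 6.69 ± 1.29 CPM). The 12354 genes were seen in 5% or more of the nuclei of either class. Cbln1 and Cbln2 passed that filter through glutamatergic nuclei alone, so their place beside this share is a description. In thinned nuclei a Cbln1 UMI was seen in 1.95% of glutamatergic and 0.19% of GABAergic nuclei, and a Cbln2 UMI in 2.28% and 0.50% (unthinned 7.45% and 1.01%, and 8.84% and 1.89%). In oligodendrocytes, with a median of 2460.0 UMIs against 8704 in neurons, the unthinned shares were 0.55% and 0.43%, so the GABAergic shares in thinned nuclei are read as near background. The signal sat in part of the glutamatergic clusters. Cbln1 had no UMI in 8 of the 69 and reached 52.1 CPM in the highest, and Cbln2 had none in 6 and reached 70.7 CPM, whereas no GABAergic cluster exceeded 8.63 CPM for either gene.

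Smaller gaps without overlap between the classes were seen for 10 more genes, beside these 3, which makes 13 of 38 against 15.9% (1961) of the 12354 genes. Ptprd was 1.75-fold higher in glutamatergic clusters, at 4437, 4593, 4869 and 4429 CPM against 2687, 2718, 2607 and 2470.1 CPM. Elfn1 was 1.86-fold, Cntnap5c 1.56-fold and Il1rapl2 1.36-fold higher in glutamatergic clusters. Lrrtm2 was 1.37-fold, Cntnap4 1.35-fold, Clstn2 1.28-fold and Lrrtm4 1.12-fold higher in GABAergic clusters.

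**Figure D3:**
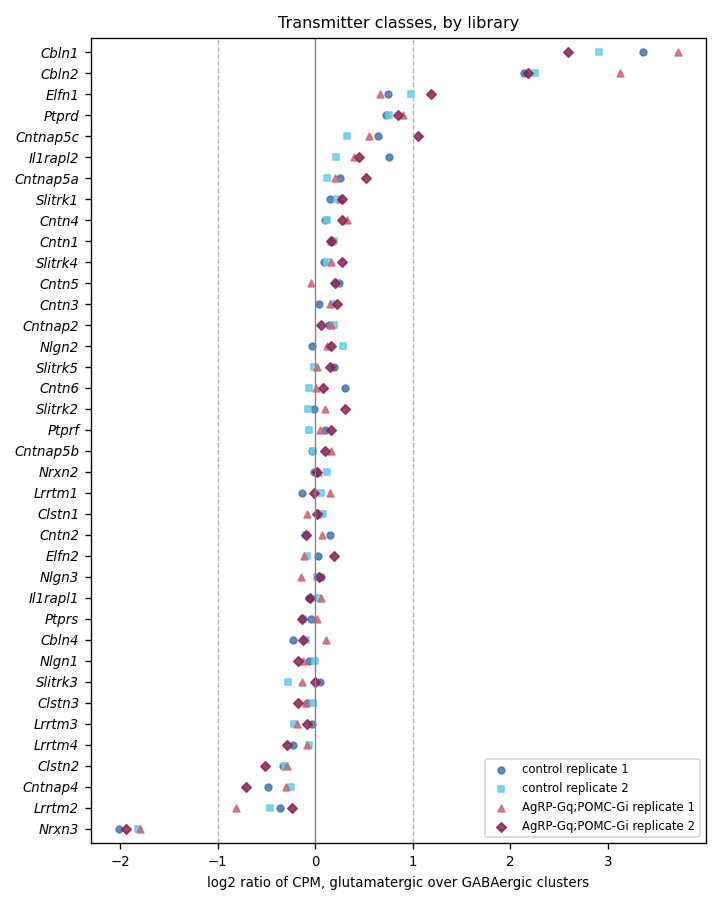
Log2 ratio of each gene's CPM in glutamatergic over GABAergic clusters, with 1 marker per library and dashed lines at a 2-fold difference. Cbln1 and Cbln2 lie beyond the line on the glutamatergic side and Nrxn3 beyond the line on the GABAergic side in all 4 libraries.

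Single clusters resolved the paralogs further. For each gene the clusters above 50% of its highest cluster were counted. At most 5 such clusters were found for 10 of the 39 genes, beside 36.8% (6840 of 18607) of all genes read in at least 1 cluster, and 2 of the 10 had 100 UMIs or more in the highest cluster. Ptprs exceeded 50% of its highest level in 106 clusters, Ptprd in 20. Il1rapl1 did so in 80 clusters and Il1rapl2 in 2, Cntnap2 in 35 and Cntnap5c in 4, Nrxn2 in 93 and Nrxn3 in 43, Nlgn1 in 68 and Nlgn3 in 1. The other families ran from 5 (Lrrtm2) to 76 (Lrrtm3), from 2 (Cbln1) to 7 (Cbln4), from 2 (Slitrk2) to 31 (Slitrk4), from 5 (Elfn1) to 27 (Elfn2), from 10 (Cntn3 and Cntn5) to 72 (Cntn1) and from 10 (Clstn2) to 97 (Clstn1). The counts for Nlgn3, Slitrk2, Elfn2, Lrrtm2, Cbln4, Cbln1, Slitrk4 and Elfn1 rest on 3, 5, 9, 10, 21, 30, 47 and 65 UMIs in the highest cluster and do not resolve breadth. Those for Nrxn2 and Clstn1 rest on 93 and 96 UMIs, also under 100, and are read with the same limit.

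The 2 of these 10 genes with firm counts were Il1rapl2 and Cntnap5c. The label rests on the 50% threshold, since at 25% of the highest cluster Il1rapl2 counted 17 clusters and Cntnap5c 10, and 0 of the 39 genes had at most 5, beside 11.1% (2068) of all genes. Il1rapl2, the X-linked relative of Il1rapl1, was highest in cluster 149 (labelled Cartpt/Arhgap28) at 3601, 3315, 5374 and 3421 CPM, against a median of 286 CPM over all clusters. Cluster 113 (Slc17a7/Il1rapl2) followed at 2584 ± 881 CPM (SD, n = 4). Cntnap5c was highest in cluster 148 (Ccdc172/Ebf2) at 2629.7, 2875, 2800.4 and 2352 CPM, above every library of the next cluster, 63 (Ebf2/Th), at 1786 ± 284 CPM, and against a median of 189 CPM. Nlgn1 was the other gene whose highest cluster did not overlap the second, with 5693, 5832, 6129.6 and 6288 CPM in cluster 145 (Col12a1/Tnc) and 5223 ± 279 CPM in cluster 41 (Ryr1/Tfap2b). The highest cluster of every other gene overlapped the second, so its place is not resolved.

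Some clusters held the highest mean of more than 1 gene, although the highest cluster of Cntn3, Slitrk1, Cbln2, Elfn1 and Cntnap5a overlapped the second. Cluster 129 (Bnc2/Ebf2) was highest for Cntn3 at 1189, 1263, 1331 and 1205 CPM, for Slitrk1 at 166, 93.5, 240.4 and 186 CPM, and for Cbln2 at 64.5, 140.3, 37.0 and 40.9 CPM. Cluster 105 (Ebf2/Calb1) was highest for Elfn1, at 107, 130.0, 79.9 and 119 CPM against a median of 9.79 CPM, with cluster 129 next at 91.0 ± 34.5 CPM. Cluster 148 held the highest level of Cntnap5a too, at 2742, 2288, 3738 and 4063 CPM. Slitrk1, Cbln2 and Elfn1 in their highest clusters rest on 76, 24 and 65 UMIs.

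Cbln1 was highest in cluster 104, labelled Gabra6/Fat2 for genes known from cerebellar granule cells, at 104, 73.6, 88.6 and 119 CPM on 30 UMIs. That cluster was also the highest for Cntn2 (79.0 ± 18.5 CPM) and the second for Cntn1 (915 ± 104 CPM) and Slitrk3 (47.1 ± 49.1 CPM). Cntn1 was highest in cluster 167 (Tph2/Slc6a4), whose label genes make and take up serotonin, at 933, 1009, 1456 and 823 CPM. Lrrtm4 was highest in cluster 159 (Casr/Slc6a2) at 9184 ± 1518 CPM, followed by cluster 143 (Kcnq5/Hs3st4) at 7642 ± 462 CPM, which was also the highest for Cbln4 at 38.8 ± 22.5 CPM. Lrrtm3 was highest in cluster 126 (Tfap2b/Slc39a8) at 860, 775, 669 and 743 CPM and Cntnap5b in cluster 70 (Tfap2b/Cntnap5b) at 2222 ± 177 CPM.

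Nrxn3 reached 12192 ± 2304 CPM in cluster 157 (Cnpy1/Adamts18) and 11229 ± 1776 CPM in cluster 49 (Ccbe1/Tspan18). Cluster 157 had no class call, on 10 UMIs of each transporter. Cluster 49 held Slc32a1 at 40.4 and Slc17a6 at 12.3 CPM, short of the 4-fold difference. Nrxn2 spread from 35.7 to 238 CPM over all clusters, with its highest in cluster 155 (Kcnh8/Arhgap6) at 210.4, 316, 259 and 169 CPM. Ptprd was highest in cluster 147 (Col5a2/Col6a1) at 11334, 10191, 11573 and 9164 CPM and Ptprs in cluster 31 (Cdh3/Nkain3) at 311, 376, 377 and 383 CPM. Cntnap2 was highest in cluster 175 (Lama1/Sntg2) at 9903, 16549, 14828 and 11399 CPM and Il1rapl1 in cluster 124 (Zfp804b/Dlk1) at 3243, 4170.0, 4980.0 and 4158 CPM. Clstn2 and Ptprf were highest in cluster 171 (Otof/Gbx1), at 1524 ± 271 and 92.0 ± 41.7 CPM, and Clstn1 in cluster 162 (Chrdl1/Kcnh8) at 270.1, 307, 160.4 and 197 CPM. Cntn5 was highest in cluster 184 (Calcr/Shox2) at 5699 ± 1148 CPM, Cntn4 in cluster 64 (Ebf3/Pax2) at 3297 ± 576 CPM, and Cntn6 in cluster 72 (Ano2/Foxp2) at 989 ± 165 CPM. The inhibitory neuroligin Nlgn2 and Nlgn3 had their highest means in cluster 177 (Foxp2/Ano2), which has 36 nuclei, 35 of them in control replicate 1, and where they rest on 4 and 3 UMIs, so no place is given to them. Low counts also limit Lrrtm2 in cluster 178 (10 UMIs), Slitrk2 in 182 (5), Slitrk6 in 134 (9) and Elfn2 in 166 (9).

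**Figure D4:**
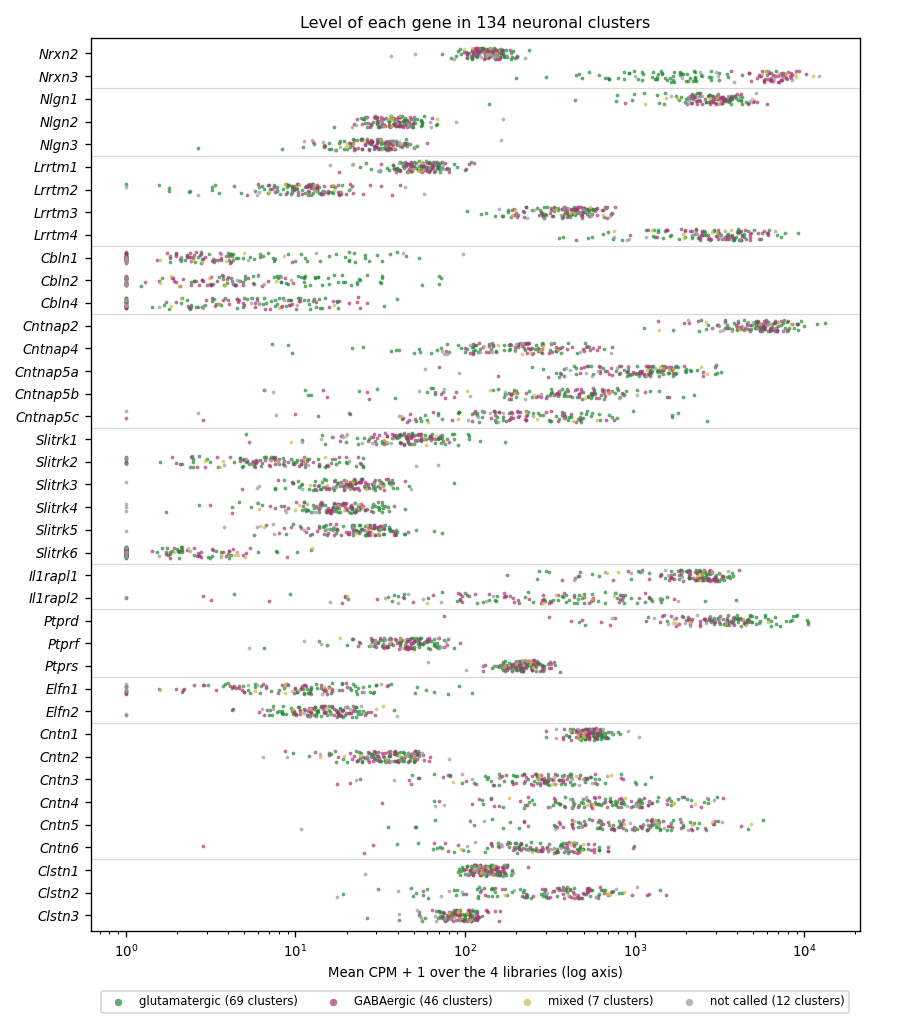
Mean CPM + 1 of each gene over the 134 neuronal clusters, with 1 point per cluster on a log axis, coloured by transmitter class. The GABAergic clusters of Nrxn3 lie at the upper end of its range, and Il1rapl2 and Cntnap5c show a few clusters far above their medians of 286 and 189 CPM.

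Paralogs and binding partners were also compared from cluster to cluster. Over the 134 clusters, the median Spearman rho was 0.099 for 61 pairs of paralogs and 0.074 for 56 pairs of known partners, and 1 of the 117 pairs passed 0.5 in size, beside 0.172% (131064) of the 76304481 pairs among 12354 genes. For 20 of the 39 genes the SD between clusters was over 2 times that between libraries, and a pair with a gene below that can stay near 0 through counting noise. Of the 31 pairs in which both genes passed it, 1 reached 0.5, with a median rho of 0.10, beside 0.794% (9862) of 1242676 such pairs among all genes. These are descriptions, since clusters share libraries, depth and the clustering. That pair was Cntn4 and Cntn6, with a rho of 0.78 (Pearson 0.74), and 0.74 among glutamatergic and 0.88 among GABAergic clusters, and 0.78 in control and 0.77 in AgRP-Gq;POMC-Gi libraries alone. The 2 genes are neighbours on chromosome 6, on the plus strand of GRCm38, at 104492790 to 104863406 (Cntn6) and 105677660 to 106699310 (Cntn4), 814 kb apart. Cntn3, on the minus strand of the same chromosome at 102162655 to 102573101, followed neither of them (rho 0.084 with Cntn4 and 0.10 with Cntn6). The most negative pairs joined Nrxn3 with Cbln2 (rho -0.43) and with Cbln1 (-0.38), the genes that leaned to opposite classes. Within classes the rho with Cbln2 was -0.073 among glutamatergic and 0.35 among GABAergic clusters, and that with Cbln1 -0.079 and -0.13. Of the trans-synaptic partners, Ptprd and Il1rapl2 stood at 0.33, with 0.092 among glutamatergic and 0.50 among GABAergic clusters, and Elfn1 and Grm7, the glutamate receptor it recruits, at 0.29, with 0.30 in both classes.

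Between AgRP-Gq;POMC-Gi and control libraries, none of the 37 genes tested in all neurons was called by edgeR's quasi-likelihood test with Benjamini-Hochberg adjustment at 0.05, beside 0% (0) of all 12115 genes. At an unadjusted p under 0.05 there was 1 of the 37, beside 5.51% (667) of all genes, and DESeq2 called none of the 37. That gene was Cntn4, with a log2 difference of 0.28 (SE 0.09, unadjusted p = 0.0181, adjusted p = 0.81 in edgeR), higher in both AgRP-Gq;POMC-Gi libraries than in both controls. Cntnap4 came next, at 235, 233, 268 and 249 CPM, with a log2 difference of 0.21 (SE 0.09, adjusted p = 0.81 in edgeR). The log2 difference was above 0 for 23 of the 37 genes, with a median of 0.046 against -0.0003 over all genes. Without the TMM factors (which rescale the libraries by their bulk of genes) it was above 0 for 15 of the 37, with a median of -0.019 against -0.060. The whole table moved with the scaling, from 6047 to 3687 of the 12115 genes above 0, and the median of the 37 lay above that of all genes in both.

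Within classes the result was the same. None of 38 genes was called in glutamatergic neurons (0% of 12150 genes), with 2 at an unadjusted p under 0.05 (background 5.57%, 677), Cntn4 (log2 0.32, SE 0.10) and Cntnap5a (0.26, SE 0.11). None of 36 was called in GABAergic neurons (0% of 12097), with 1 at an unadjusted p under 0.05 (background 4.98%, 602), Cntnap4 (log2 0.30, SE 0.09). The difference between classes in the group effect was called for none of 37 genes (0% of 12115), with 2 at an unadjusted p under 0.05 (background 4.72%, 572), Cntn4 and Cntnap5b.

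The counts of 0 in all neurons and in each class turned on AgRP-Gq;POMC-Gi replicate 2, the library with the low Xist. When it was left out, and AgRP-Gq;POMC-Gi replicate 1 alone was set against the controls with the spread assumed equal, edgeR called 12 of the 37 genes higher (background 7.9%, 957 genes) and 1 lower (background 8.75%, 1060 genes) in all neurons. The 12 were Cntn4 (log2 0.31), Cntn5 (0.21), Cntnap2 (0.18), Cntnap4 (0.31), Cntnap5a (0.32), Cntnap5b (0.39), Il1rapl1 (0.26), Il1rapl2 (0.23), Lrrtm4 (0.15), Nlgn1 (0.20), Nrxn3 (0.17) and Ptprd (0.17), and the lower gene was Slitrk4 (-0.46). In glutamatergic neurons 4 genes (background 1.74%, 212 genes) and in GABAergic neurons 9 (background 3.64%, 440 genes) were called without it, all higher, and 0 in each class without any other library. The difference between classes was called for 0 of the 37 genes without it (background 0.429%, 52 genes) and for 3 without AgRP-Gq;POMC-Gi replicate 1 (background 1.14%, 138 genes), which were Cntnap4 (log2 0.33), Cntnap5a (-0.34) and Cntnap5c (-0.58). In CPM, AgRP-Gq;POMC-Gi replicate 1 was the highest of the 4 libraries for 11 of the 12 genes, and AgRP-Gq;POMC-Gi replicate 2 was the lowest for 6 of them, as for Cntnap2 at 6082 and 5266 CPM. The oligodendrocyte markers Mog, Mbp and Mobp summed to 108, 89.7, 50.2 and 69.7 CPM in neurons. The bodies of the 12 genes span 313 kb (Cntnap4) to 2271 kb (Ptprd), and that of Slitrk4 12.1 kb. The background shares are over all genes tested and are not matched for gene length or depth. The part of gene length, depth, sex makeup, neuron share or the oligodendrocyte transcripts in the calls was not tested.

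A list of 46 other synaptic organizer and adhesion genes gave a like picture. None of the 39 of them tested was called in all neurons by edgeR, and 3 had an unadjusted p under 0.05: Nectin3 at 27.7, 28.0, 19.8 and 23.2 CPM (log2 -0.32, SE 0.09), Adgrl2 (log2 0.23, SE 0.09), a latrophilin, and Tenm1 (log2 0.28, SE 0.11), a teneurin that latrophilins bind. Lrrc4, a netrin-G ligand, followed at a log2 difference of 0.26 (SE 0.11). Without AgRP-Gq;POMC-Gi replicate 2, 10 of the 39 were called higher (background 7.9%) and 3 lower (background 8.75%), and without AgRP-Gq;POMC-Gi replicate 1, 1 was called (background 0.239%, 29 of 12115 genes).

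In the other cell types 9 were large enough to test, with 140 pairs of gene and cell type. The 1 pair called was Ptprd in mural cells, beside 0.437% (25) of 5723 genes in mural cells and 0.121% (82) of 67663 pairs of gene and cell type. Ptprd was at 207, 203, 412 and 464 CPM on 111, 87, 61 and 124 UMIs, a log2 difference of 1.14 (SE 0.21, adjusted p = 4.26e-04 in edgeR). The groups did not overlap in CPM. A Ptprd UMI was held by 52, 45, 19 and 37 mural nuclei, and the median nucleus stood at 0 CPM in every library. Mural nuclei numbered 289, 251, 103 and 163. In them the neuronal markers summed to 194, 236, 203 and 232 CPM and the oligodendrocyte markers to 336, 327, 345 and 411 CPM, with the groups overlapping for the former and both AgRP-Gq;POMC-Gi libraries higher for the latter. The part of these transcripts in the Ptprd call was not tested. Oligodendrocytes and neurons were the cell types with the highest Ptprd levels. The choroid transcripts summed to 3.74, 5659, 20.3 and 3762 CPM, high in 1 library of each group. Left out in turn, control replicate 1 gave an adjusted p of 0.19, control replicate 2 of 0.22 and AgRP-Gq;POMC-Gi replicate 2 of 0.0587 in edgeR, all above the threshold of 0.05, and AgRP-Gq;POMC-Gi replicate 1 of 0.00197.

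Single neuronal clusters were tested where every library held at least 5 nuclei, which 120 of the 134 did. Of 4166 pairs of cluster and gene among the 39 genes, 35 were called by edgeR with adjustment over the genes of the cluster, 22 higher and 13 lower in AgRP-Gq;POMC-Gi, beside 0.0385% (537) of 1396489 pairs over all genes. Among pairs with at least 100 UMIs in the cluster, 22 of 2252 were called, beside 0.128% (278) of 216384. The calls fell in 29 clusters and on 11 genes. Il1rapl2 was called in 11 clusters (5 higher, 6 lower), Cntn5 in 7 (6 higher, 1 lower), Cntn4 in 5 (4 higher, 1 lower), Cntn3, Cntn6, Cntnap5b and Cntnap5c in 2 each, and Nrxn3, Cntnap5a, Lrrtm4 and Il1rapl1 in 1 each. The genes of the whole table called in most clusters were Xist (16), Gm32647 (12), Il1rapl2 (11) and Tsix (10), of which Il1rapl2, Xist and Tsix are X-linked. Of the other X-linked genes among the 39, Il1rapl1 was called in 1 of 120 clusters tested. Nlgn3, Slitrk2 and Slitrk4 were called in 0 of 120, 70 and 111 clusters tested. Cntn5 (7) and Cntn4 (5) are autosomal. The part of sex makeup in these calls was not tested.

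These calls rest on few nuclei. The 5% filter counted the nuclei of all 4 libraries together, so a pair can pass it through 1 group alone. The libraries of a called cluster held 5 to 66 nuclei, 13 of the 35 pairs had under 100 UMIs in all, and the single nucleus with the most UMIs held 5.53% to 74.0% of them, with a median of 26.4%. When that nucleus was removed, an alternative chosen after seeing the data, 6 of the 35 pairs were still called. Of the 29 that lost the call, 27 kept their direction, 11 kept at least 80% of the log2 difference, as did Cntn5 in cluster 111 (1.28 and 1.20) and Cntn6 in cluster 152 (2.01 and 1.86), and 6 kept under 50%, so a lost call alone does not show that 1 nucleus carried the difference. With robust dispersions, also chosen after seeing the data, 4 of these 6 kept their call, while Cntn5 in cluster 156 (adjusted p = 0.87 in edgeR) and Cntn4 in cluster 127 (adjusted p = 0.82 in edgeR) did not. With adjustment over all pairs of cluster and gene at once, another choice made after seeing the data, 27 of the 35 were called (background 0.0279%, 389 pairs), and the 8 lost were Cntn4 in clusters 65, 122 and 152, Cntn5 in 116, Cntn6 in 148, Cntnap5b in 145 and Cntnap5c in 135 and 142. No pair of the 35 was called in all 4 fits that left out 1 library, and DESeq2 called 2 of them. The values per library are therefore given as levels of those nuclei.

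Cntn5, a contactin known from sensory circuits, rose in 6 clusters. In cluster 125 (Otof/Stac) it was at 198, 79.8, 792 and 364 CPM (log2 2.36, SE 0.33), and in cluster 59 (Kcnmb2/Sema3a) at 30.0, 151, 344 and 356 CPM (log2 1.94, SE 0.32). In cluster 156 (Ankfn1/Pou4f1) it was at 577, 140, 790 and 1718 CPM (log2 1.84, SE 0.26). These 3 were still called without the top nucleus, and in all of them both AgRP-Gq;POMC-Gi libraries lay above both controls. The other rises were in cluster 116 (Prph/Slc5a7) at 1175, 929, 2442 and 3691 CPM, cluster 111 (Cartpt/Postn) at 772, 650.2, 1589.9 and 1433 CPM, and cluster 80 (Pdyn/Cpa6) at 102, 120.1, 342 and 258 CPM. The 1 fall was in cluster 130 (Qrfpr/Tac1), at 634, 382, 160.1 and 156 CPM, with 38.7% of the UMIs in 1 nucleus of control replicate 1. Without that nucleus the log2 difference went from -1.65 to -0.69.

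Cntn4 rose in 4 clusters. It was at 0, 35.1, 76.6 and 611 CPM in cluster 127 (Dach1/Unc5d), the 1 rise of this gene called without the top nucleus, where AgRP-Gq;POMC-Gi replicate 2 alone was far above the rest. It was at 920.0, 582, 1282 and 1587 CPM in cluster 65 (Eya1/Hs3st4), at 716, 332, 884 and 1185 CPM in cluster 122 (Zfp804b/Lncenc1), and at 523, 617, 1504 and 1859 CPM in cluster 152 (Foxp2/Gata3). Its neighbour Cntn6 rose in the same cluster 152, at 138, 203, 634 and 736 CPM. Cntn4 fell in cluster 133 (Nxph2/Nox4), at 241, 730, 104 and 157 CPM, and Cntn6 in cluster 148 (Ccdc172/Ebf2), on 6, 6, 0 and 0 UMIs with 50% of them in 1 nucleus. Those Cntn6 UMIs lay in 1, 2, 0 and 0 nuclei. This pair thus passed the 5% filter through control nuclei alone, and its fall is a description. Cntn3 rose in cluster 121 (Slc17a7/Lama1), at 71.7, 52.0, 221 and 101 CPM, and fell in cluster 124 (Zfp804b/Dlk1), at 320, 453, 205 and 126 CPM.

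Il1rapl2 had no common direction. It was higher in cluster 153 (Lmo3/Cpne4) at 0, 8.84, 255 and 239 CPM on 0, 1, 31 and 35 UMIs, the 1 pair of this gene called without the top nucleus. Those UMIs lay in 0, 1, 4 and 4 nuclei, with 41.8% of them in 1 nucleus of AgRP-Gq;POMC-Gi replicate 2. Without that nucleus the log2 difference went from 5.31 to 4.62. Il1rapl2 was also higher in cluster 140 (Fgf10/Cpne4) at 129, 153, 428 and 456 CPM. Other rises were in cluster 73 (Sema3a/Klhl1) on 0, 13, 44 and 31 UMIs, cluster 111 on 0, 1, 51 and 11 UMIs, of which 1 nucleus held 52.4%, and cluster 122 on 107, 25, 103 and 212 UMIs, where the groups overlapped. It was lower in cluster 78 (Ebf2/Adarb2) at 283, 128, 78.2 and 58.6 CPM, in cluster 55 (Rab38/Ano1) at 166, 131, 15.3 and 45.3 CPM, and in cluster 181 (Sntb1/Cpne4) at 308, 138, 12.3 and 8.93 CPM. In the remaining 3 clusters a single nucleus also held most of its UMIs: 74.0% of 49, 0, 0 and 1 in cluster 148, 61.6% of 5, 141, 77 and 1 in cluster 76, and 61.2% of 6, 30, 1 and 12 in cluster 155 (Kcnh8/Arhgap6). The groups overlapped in clusters 76 and 148.

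Of the CASPR genes, Cntnap5b rose in cluster 157 (Cnpy1/Adamts18), at 19.2, 11.9, 580.3 and 74.5 CPM on 1, 1, 88 and 3 UMIs, still called without the top nucleus, and in cluster 145 (Col12a1/Tnc), at 578, 281, 982 and 920.3 CPM. Cntnap5c was called higher in cluster 135 (Zfp804b/Etl4), at 151, 132, 1020.1 and 227.5 CPM on 47, 24, 48 and 19 UMIs. A single nucleus of AgRP-Gq;POMC-Gi replicate 1 held 29.7% of these UMIs, and without it the log2 difference went from 1.84 to 0.49. Cntnap5c fell in cluster 142 (Cpne4/Trhde), at 432, 372, 116 and 84.4 CPM, where Cntnap5a rose, at 16.6, 423, 1296 and 485 CPM. Nrxn3 rose in CPM in the glutamatergic cluster 105 (Ebf2/Calb1), from 286 and 37.1 to 455 and 409 CPM, levels near the bottom of its range over all clusters. Its UMIs lay in 7 of 13, 2 of 19, 8 of 23 and 13 of 38 nuclei, a share that was highest in control replicate 1. The nucleus with the most held 20.3% of them. Lrrtm4 fell in CPM in cluster 146 (Rxfp1/Ebf2), at 587, 589, 148 and 101.5 CPM. Its UMIs lay in 2 of 9, 1 of 8, 4 of 15 and 6 of 26 nuclei, with 31.5% of them in 1 nucleus of control replicate 2. Without that nucleus the log2 difference of Lrrtm4 went from -2.09 to -1.18. Il1rapl1 fell in cluster 148, at 920.4, 147, 40.2 and 145 CPM with 58.1% of its UMIs in 1 nucleus.

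**Figure D5:**
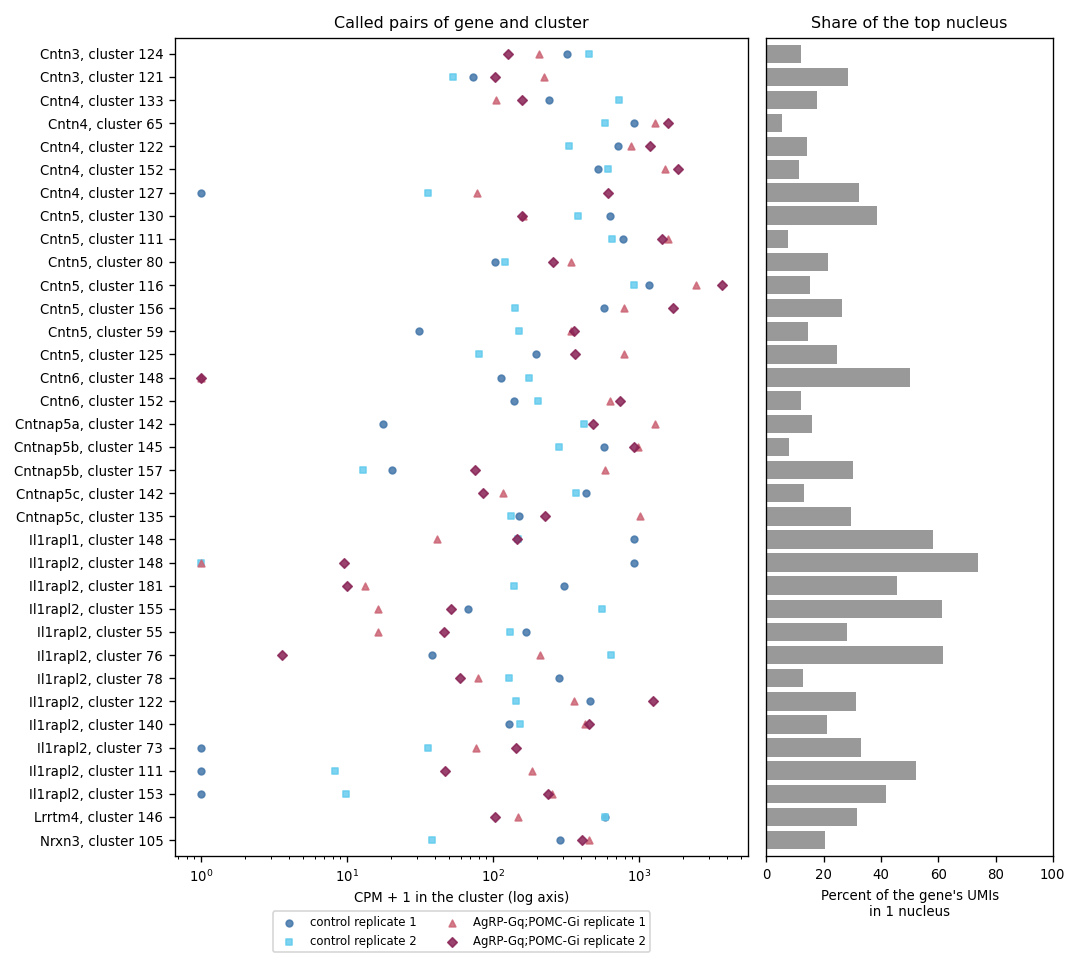
Left, CPM + 1 per library of the 35 called pairs of gene and neuronal cluster, on a log axis, with 1 marker per library. Right, the percent of the gene's UMIs in the cluster that lay in 1 nucleus. The pairs were chosen by the group test, so the gap between the groups is a description, and markers of the same group can lie far apart, as for Cntn5 in cluster 156 at 790 and 1718 CPM.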

How the data were processed

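UMI counts per gene and nucleus, which the authors deposited as raw matrices for 4 libraries, had been made with Cell Ranger (v7.0.0) on GRCm38 (mm10) and processed with Seurat (v4.3.0), with nuclei of few UMIs or genes, nuclei rich in mitochondrial RNA and doublets taken out by the authors. Whether intronic reads were counted is not given in the sources used here. The deposited annotation gave the quality filter, the cell types and the clusters.

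Counts were summed per library and population and divided by the total of that sum (CPM). A level is the mean ± SD of 4 libraries, and fold values are ratios of means. Gene bodies were taken from GENCODE M21. Group tests used edgeR 4.0.16 in R 4.3.3 (quasi-likelihood test, TMM factors, two-sided) on genes seen in 5% or more of the nuclei, with Benjamini-Hochberg adjustment over all genes tested and a threshold of 0.05. Each SE given was derived as the size of edgeR's log2 difference divided by the square root of its F statistic. DESeq2 1.42.0 was an alternative. The study fitted a mixed model per nucleus, for which sums per library were used here. Clusters needed 5 nuclei and other cell types 20 nuclei in each library. Shares were compared after thinning to 800 UMIs (cell types) or 2000 UMIs (classes). Correlations used log2(CPM + 1). Other steps used Python 3.11.15 with pandas 2.3.3, numpy 2.4.6, scipy 1.17.1 and matplotlib 3.10.9.

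Every gene of the list was named with its level. Clusters were named as the highest or second highest of a gene or for a called gene, and values per library were given for called genes, the lowest 2 p-values of all neurons and the broadest and narrowest gene of each family. The genes and lists were chosen with earlier results of these data known. The alternatives were other scaling, filters, tools, cluster sizes, a replicate block and leaving out each library. Robust dispersions, adjustment over all pairs and removal of the nucleus with the most UMIs were added after the data were seen. Counting error is small at the depth of pooled neurons and large in single clusters. The oligodendrocyte sum uses 3 markers, and some results are not reported here.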

Additional observations from a re-analysis of the deposited data

How the results depend on the processing

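Precision is set by 2 libraries per group and, in single clusters and other cell types, by few nuclei. In all neurons and in each class, edgeR called none of the 39 genes without TMM factors, with another filter or none, or with the replicate block, nor did DESeq2, nor edgeR with equal cluster makeup (fitted for all neurons alone). The difference between classes was refitted without TMM factors and without a filter, with no call. Leaving out libraries gave 0 to 13 genes in all neurons, 0 to 4 in glutamatergic neurons, 0 to 9 in GABAergic neurons, 0 to 3 for the difference between classes and 0 to 13 of the other organizer genes. The 13, 4, 9 and 13 came without AgRP-Gq;POMC-Gi replicate 2, and the 3 (Cntnap4, Cntnap5a and Cntnap5c) without AgRP-Gq;POMC-Gi replicate 1. In single clusters the 35 pairs became 4 with DESeq2 (48 pairs over all genes), 6 with edgeR's filterByExpr (110), 16 where every library held 10 nuclei or more (299), 6 without the nucleus with the most UMIs, and 46 to 55 with a library left out (792 to 1339, against 537 with all 4 libraries). The 1 pair of the other cell types became 3 without TMM factors (174 of 67663 over all genes), 2 with DESeq2 (197), 8 of 343 with no filter on genes (900 of 177147), 2 with filterByExpr (116 of 77061) and 3 to 5 with a library left out (196 to 795). Of the 35 pairs, Il1rapl2 in cluster 76 turned to a log2 difference of 1.57 without control replicate 2 and 2.19 without the nucleus with the most UMIs, Il1rapl2 in cluster 148 to 2.08 without control replicate 1, and Il1rapl2 in cluster 155 to 0.030 without that nucleus. With a library left out, Il1rapl2 ranged from -6.85 to 1.57 in cluster 76 and from -7.68 to 2.08 in cluster 148. No cause was tested. Of 450 values of single genes under alternatives, 245 kept direction and call, 196 lost the call, 5 gained it and 4 changed sign. The 10 genes restricted to few clusters became 0 at 25% of the highest cluster and 4 by share of thinned nuclei. By share of thinned nuclei, 0 genes were 2-fold higher in GABAergic clusters, with Nrxn3 at 99.3% against 74.1% of glutamatergic nuclei. A share of 74.1% leaves no room for a 2-fold higher one, so this alternative could not keep Nrxn3.

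Replicate numbers were not taken as pairs, since nothing in the labels ties a control to an AgRP-Gq;POMC-Gi library and there are 2 pairs (correlation of same-numbered deviations 0.18). With the replicate block, 37 pairs were called in single clusters (792 of 1396489 over all genes), 25 of them among the 35, 5 in the other cell types (755 of 67663, against 82 without the block), and 0 of the 39 genes in all neurons, where 45 of all genes were called higher and 124 lower, or in either class.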
